A study of Mus musculus with 24 samples.

Results

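The GABA-A receptor subunits described here are the 7 genes Gabra2, Gabra3, Gabra4, Gabra5, Gabrb1, Gabrb2 and Gabrd, measured by every probe set that the array's annotation table pairs with one of them and no other gene. That gave 21 probe sets of 45037 tested, and 7 genes of 18193 with a probe set of their own. Gabra2 and Gabrb2 have 5 probe sets each, Gabrb1 has 4, Gabra3, Gabra4 and Gabrd have 2 each and Gabra5 has 1. All 21 were kept, with no filter on low values.

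The study asked how 6 h of sleep deprivation alters RNA in the brain cells that express Homer1a, a short activity-induced product of the synaptic scaffold gene Homer1. Male mice aged 12 ± 1 weeks were kept awake by gentle handling for 6 h beginning at lights-on, or were left undisturbed as controls, and all samples are labelled ZT6, which is 6 h after lights-on. RNA of the labelled cells was recovered from brains fixed by formaldehyde perfusion with beads carrying an anti-FLAG antibody (the pull-down, poly(A) RNA). The 24 Affymetrix arrays comprise 6 pull-downs after sleep deprivation, 6 control pull-downs, 4 whole-brain extracts after sleep deprivation, 4 control whole-brain extracts and 4 total RNA extracts of what the beads left behind (the supernatant). The strain, the genotype and the promoter behind the tag are not given in the sources used here. By title the supernatants are 3 sleep-deprived and 1 control, and by source name 2 and 2, because 1 of them carries a title for sleep deprivation and a source name for control. The 4 were therefore treated as 1 group, whose mix of conditions may differ from the even mix of the other extracts. Whole-brain RNA was extracted without the fixation and bead steps, and amplification is described for immunoprecipitated RNA only. Between pull-down and whole brain, cell type, fixation, precipitation, RNA type and amplification therefore cannot be told apart. Pull-down and supernatant both come from fixed brains, and there cell type, precipitation, RNA type and amplification cannot be told apart. Between whole brain and supernatant, fixation, the bead incubation and the removal of the precipitated RNA cannot be told apart.

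The GABA-A receptor is a chloride channel made of several subunits around a central pore, and it carries most fast inhibition in the adult brain. The alpha subunits, with their neighbours, shape the binding of GABA and of benzodiazepines, the beta subunits contribute the other face of the GABA site and contacts needed for surface delivery, and the delta subunit is found in receptors outside the synapse that respond to low ambient GABA and to neurosteroids. Receptors of this family are the targets of most hypnotic drugs.

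The sequences below are RefSeq promoter windows of the GRCm38.p6 mouse assembly, 250 bases before to 50 bases after an annotated start. They are shown for Gabra5, the gene whose probe set had the largest increase in the pull-down over whole brain, and for Gabra4 and Gabrb1, whose annotated starts lie 387 bases apart on opposite strands of chromosome 5 and whose brightest probe sets were called in opposite directions in that comparison. The Gabra5 window is chr7:57510010-57510309 on the minus strand, the Gabra4 window is chr5:71658259-71658558 on the minus strand, and the Gabrb1 window shown is chr5:71657671-71657970 on the plus strand. The Gabra5 window lies inside the annotated span of the gene (chr7:57407669-57591016) and not at its upstream end, for which no window was found. Capitals mark matches, on either strand, to the EGR site GCGNGGGCG, the recognition sequence of the activity-induced early growth response factors.
Gabra5: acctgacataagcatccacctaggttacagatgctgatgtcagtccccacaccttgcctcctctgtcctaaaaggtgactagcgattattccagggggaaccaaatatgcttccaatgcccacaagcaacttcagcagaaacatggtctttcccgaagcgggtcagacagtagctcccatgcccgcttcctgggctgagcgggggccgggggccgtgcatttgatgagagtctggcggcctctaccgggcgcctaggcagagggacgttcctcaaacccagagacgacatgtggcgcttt
Gabra4: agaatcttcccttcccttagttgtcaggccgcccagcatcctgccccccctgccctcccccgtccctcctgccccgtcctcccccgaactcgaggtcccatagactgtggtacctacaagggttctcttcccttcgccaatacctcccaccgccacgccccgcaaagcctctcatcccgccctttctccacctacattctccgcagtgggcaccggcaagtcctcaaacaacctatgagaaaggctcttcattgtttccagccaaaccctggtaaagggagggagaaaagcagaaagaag
Gabrb1: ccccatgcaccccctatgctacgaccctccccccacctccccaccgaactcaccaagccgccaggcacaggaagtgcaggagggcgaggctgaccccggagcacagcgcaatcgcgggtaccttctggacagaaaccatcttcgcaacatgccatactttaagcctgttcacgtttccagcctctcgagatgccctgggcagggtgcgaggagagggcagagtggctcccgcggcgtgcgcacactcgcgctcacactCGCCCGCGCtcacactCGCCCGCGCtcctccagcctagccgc
The Gabrb1 window shown holds 2 copies of that motif, both on the minus strand and both after the annotated start, and the Gabra4 and Gabra5 windows hold none. The other Gabrb1 window, at a different annotated start (chr5:71699682-71699981, plus strand), holds none either. The motif was present in 5.55% of 32851 promoter windows of the same length. Windows were found for 6 of the 7 genes, 10 windows in all. None held the cyclic AMP response element TGACGTCA, present in 1.79% of all windows. A single window of Gabrb2 (chr11:42420190-42420489, plus strand) held both an EGR site and TGACG, which is contained in TGACGTCA and was present in 20.8% of all windows. A match is a string of letters and does not show that a factor binds there.

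Levels are the deposited log2 RMA values (RMA is a summary of an Affymetrix probe set's brightness) and differences are log2 differences between group means, so that 1 unit is a doubling. The brightest probe set of a gene is the one with the highest mean over the 24 arrays, which names a probe set and does not rank genes by abundance. A call is an adjusted p under 0.05 by limma, a moderated linear model, with Benjamini-Hochberg adjustment over all 45037 probe sets. Pull-down arrays had lower medians (4.37 to 5.70) than whole-brain (6.04 to 6.24) and supernatant arrays (6.09 to 6.21), and the median difference between pull-down and whole brain over all probe sets was -0.78. Their 18S control signal was 6.83 to 11.1, against 13.8 to 13.9 in whole brain and 14.2 to 14.4 in supernatant, and their 3' minus 5' Gapdh difference, which grows as RNA is shortened, was 3.29 to 5.96, against 2.49 to 2.95 and 2.31 to 2.59. The part of these differences in the results was not tested. Directions are therefore also given after quantile normalization over the 24 arrays, where the median difference was 0.09, and after centring each array on its median, where it was 0.37. Of the 6 Homer1 probe sets, 3 were higher in the pull-down than in whole brain and 2 were lower, by limma. Among the pull-downs, sleep-deprived array 1 and control array 3 had the highest 18S signals (11.04 and 11.14).

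The pull-down was set against whole brain to ask which subunit transcripts were richer in RNA of the labelled cells. The probe set of Gabra5, 1 of the 2 of Gabra4, 2 of the 5 of Gabra2 and 1 of the 5 of Gabrb2 were higher in the pull-down, by 0.65 to 1.55 on the log2 scale. Both probe sets of Gabrd, both of Gabra3 and all 4 of Gabrb1 were lower, together with 2 of Gabrb2 and 1 of Gabra2. In all, 5 of the 21 probe sets were called higher (23.8%, against 8.06% of all probe sets) and 11 were called lower (52.4%, against 76.3%). The median over the 21 was -0.48, against -0.78 over all probe sets. In these bulk extracts, fewer cells of a type and less RNA per cell cannot be told apart.

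Under quantile normalization 8 of the 21 probe sets were higher and 3 lower (32.3% and 26.2% of all probe sets), and under centring 11 were higher and 1 lower (52% and 18.3%). The 5 probe sets that were higher as deposited were higher under all 3 scalings, and so they were against supernatant. One of the 11 lower probe sets, Gabrd 1449980_a_at, was lower under all 3 scalings in the comparison with whole brain. Against supernatant 4 were, namely both probe sets of Gabrd, Gabrb1 1443834_at and Gabrb2 1450319_at.

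**Figure D1:**
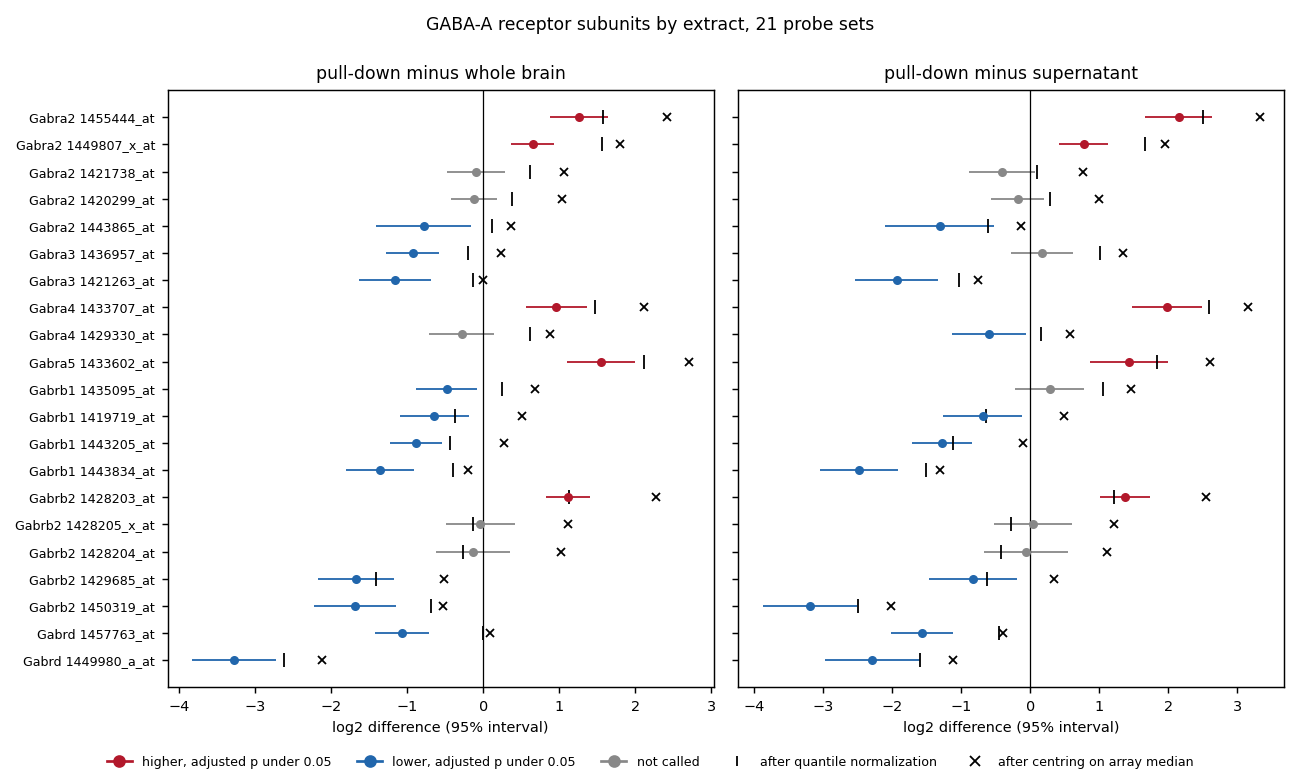
Log2 difference of each of the 21 probe sets (rows) between pull-down and whole brain (left) and between pull-down and supernatant (right), with 95% intervals from limma, in red where called higher, blue where called lower and grey otherwise. Black ticks and crosses give the difference after quantile normalization and after centring. The red points of Gabra2, Gabra4, Gabra5 and Gabrb2 stay right of 0 in both panels under each scaling, and Gabrd 1449980_a_at stays left of 0.

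Gabra5 encodes the alpha 5 subunit, known from hippocampal pyramidal neurons, where much of it lies outside the synapse. Its single probe set, 1433602_at, had a lowest, median and highest level of 8.69, 9.50 and 9.77 in pull-downs after sleep deprivation and 8.03, 9.38 and 9.88 in control pull-downs. Whole-brain levels were 7.56, 7.62, 7.84 and 7.95 after sleep deprivation and 7.61, 7.72, 7.97 and 7.98 in controls. Supernatants read 6.87, 8.09, 8.32 and 8.32. Every pull-down array was above every whole-brain array, although the lowest control pull-down (array 11) was below the highest supernatants. The difference was 1.55 ± 0.22 (SE) over whole brain, a 2.93-fold level (limma adjusted p = 4.19e-07), and 1.43 ± 0.27 over supernatant (limma adjusted p = 4.40e-05). Whole brain and supernatant did not differ beyond their spread (-0.12 ± 0.29, limma adjusted p = 0.871).

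Gabra4 encodes the alpha 4 subunit, a usual partner of delta in receptors outside the synapse of forebrain neurons. Its brightest probe set, 1433707_at, read 8.44, 9.10 and 9.69 (lowest, median, highest) in pull-downs after sleep deprivation and 8.17, 9.14 and 9.84 in control pull-downs. In whole brain it read 7.97, 8.11, 8.25 and 8.27 after sleep deprivation and 8.02, 8.12, 8.20 and 8.22 in controls, and in supernatant 6.37, 7.02, 7.44 and 7.66. The extracts formed 3 steps with the pull-down at the top and the supernatant at the bottom. Only the lowest pull-down array reached into the whole-brain range, and supernatant overlapped neither of the others. The pull-down exceeded whole brain by 0.96 ± 0.19 (limma adjusted p = 8.01e-05) and supernatant by 1.98 ± 0.25 (limma adjusted p = 8.59e-08). Whole brain exceeded supernatant by 1.02 ± 0.26 (limma adjusted p = 0.00951), a call lost without supernatant 13 (0.77). The other probe set of Gabra4, 1429330_at, did not follow: it was -0.28 ± 0.21 against whole brain, not called (limma adjusted p = 0.201), and -0.60 ± 0.26 against supernatant, called lower (limma adjusted p = 0.0393). After quantile normalization that probe set was 0.61 above whole brain.

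Gabra2 encodes the alpha 2 subunit, which is common at inhibitory synapses on the axon initial segment of pyramidal neurons. The brightest of its probe sets, 1455444_at, read 9.45, 10.20 and 10.51 (lowest, median, highest) in pull-downs after sleep deprivation and 9.02, 9.97 and 10.46 in control pull-downs. Whole brain gave 8.53, 8.61, 8.80 and 8.89 after sleep deprivation and 8.48, 8.67, 8.76 and 8.81 in controls, and supernatant 7.19, 7.85, 7.94 and 8.23. As for Gabra4, the order was pull-down, whole brain, supernatant, and here none of the 3 extracts overlapped. The differences were 1.26 ± 0.18 over whole brain (limma adjusted p = 8.77e-07) and 2.15 ± 0.23 over supernatant (limma adjusted p = 9.22e-09), a 4.44-fold level. Whole brain was 0.89 ± 0.25 above supernatant (limma adjusted p = 0.0174), a call lost without supernatant 15 (0.69). Gabra2 1449807_x_at was higher too, by 0.65 ± 0.14 over whole brain and 0.78 ± 0.17 over supernatant (limma adjusted p = 0.000125 and 0.000264). It read 4.63, 4.95 and 5.08 (lowest, median, highest) in pull-downs after sleep deprivation and 4.40, 4.93 and 5.07 in control pull-downs. Whole brain gave 3.77, 4.10, 4.15 and 4.54 after sleep deprivation and 4.13, 4.23, 4.33 and 4.37 in controls, and supernatant 3.75, 3.89, 4.26 and 4.42. Its median rank was a percentile of 47.9 within the array in the pull-down, 13.4 in whole brain and 13.02 in supernatant, so it lay among the dimmest probe sets of whole brain and supernatant. Detection calls were not used here, and its level there may not be above background, which limits what the size of its difference shows. Probe sets 1420299_at and 1421738_at were not called in any comparison as deposited. Both were called higher than whole brain after quantile normalization (0.38 and 0.61) and after centring (1.03 and 1.06). Probe set 1420299_at had a median percentile of 3.3 in the pull-down, 1.0 in whole brain and 1.9 in supernatant. Its level may not be above background in any extract, which limits what its calls after scaling show.

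The remaining Gabra2 probe set, 1443865_at, went the other way. Its levels were 6.01, 6.35 and 8.65 (lowest, median, highest) in pull-downs after sleep deprivation and 6.25, 6.60 and 8.80 in control pull-downs. In whole brain they were 6.98, 7.43, 7.44 and 7.51 after sleep deprivation and 7.68, 7.71, 7.87 and 7.99 in controls, and in supernatant 7.56, 7.76, 8.38 and 8.73. The highest values in the pull-down belong to sleep-deprived array 1 and control array 3, and all other pull-down arrays were below every whole-brain array. The pull-down was lower than whole brain by limma (-0.78 ± 0.30, adjusted p = 0.0193) and lower than supernatant (-1.31 ± 0.38, adjusted p = 0.00319). Leaving those arrays out gave -1.17 against whole brain, and quantile-normalized values gave 0.12, not called.

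Gabra3 encodes the alpha 3 subunit, known from monoaminergic nuclei, the reticular thalamus and the cortex. Probe set 1436957_at had 7.13, 7.31 and 8.22 (lowest, median, highest) in pull-downs after sleep deprivation and 6.92, 7.09 and 7.79 in control pull-downs. Whole brain read 8.25, 8.36, 8.39 and 8.55 after sleep deprivation and 8.10, 8.22, 8.25 and 8.41 in controls, and supernatant 6.58, 7.16, 7.52 and 7.62. Whole brain had the highest mean of the 3 and lay apart from supernatant, while the pull-down overlapped both. By limma the pull-down was lower than whole brain (-0.93 ± 0.17, adjusted p = 2.49e-05) and not different in the test from supernatant (0.17 ± 0.22, 95% interval -0.28 to 0.62, adjusted p = 0.474). Whole brain was 1.10 ± 0.23 above supernatant (limma adjusted p = 0.00176). The other Gabra3 probe set, 1421263_at, was lower in the pull-down than in whole brain (-1.16 ± 0.23, limma adjusted p = 6.16e-05) and lower than in supernatant (-1.94 ± 0.29, limma adjusted p = 1.77e-06). Neither Gabra3 probe set was called against whole brain after quantile normalization (-0.20 for 1436957_at and -0.13 for 1421263_at). Against supernatant they were then called in opposite directions, 1436957_at higher (1.02) and 1421263_at lower (-1.03, limma adjusted p = 0.00441).

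**Figure D2:**
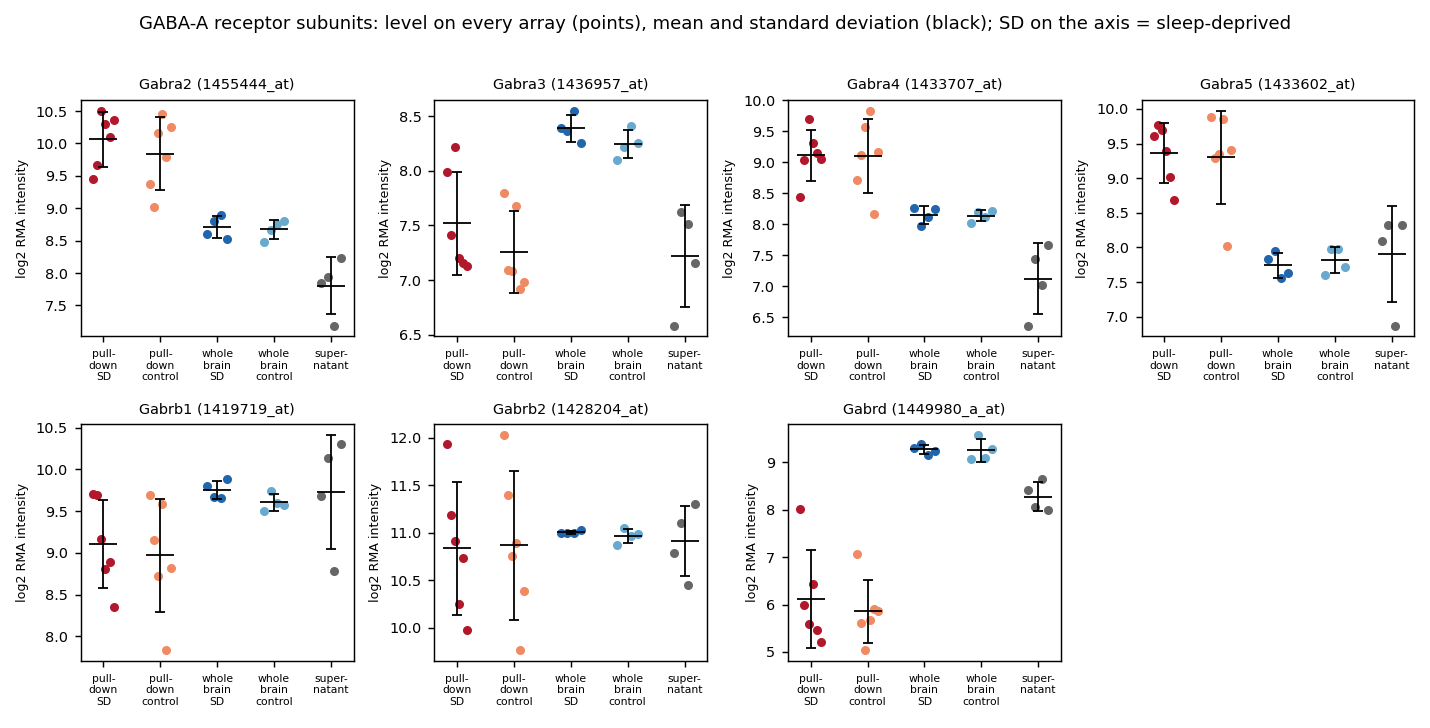
Deposited log2 RMA level (vertical axis) of the brightest probe set of each of the 7 genes on all 24 arrays, by group, with points for arrays and black bars for the mean and standard deviation. Gabra2, Gabra4 and Gabra5 are highest in the pull-downs, Gabra3 in whole brain, and Gabrd is lowest in the pull-downs, where sleep-deprived array 1 reads 8.02 and control array 3 reads 7.07.

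Gabrb1 encodes the beta 1 subunit. Its brightest probe set, 1419719_at, read 8.35, 9.03 and 9.70 (lowest, median, highest) in pull-downs after sleep deprivation and 7.83, 8.99 and 9.69 in control pull-downs, against 9.66, 9.67, 9.80 and 9.88 in whole brain after sleep deprivation and 9.50, 9.57, 9.60 and 9.74 in control whole brain. Supernatants spanned 8.78 to 10.30, and all 3 extracts overlapped. All 4 Gabrb1 probe sets were lower in the pull-down than in whole brain, by -0.48 to -1.36 on the log2 scale, and their limma adjusted p-values were 0.00991 for 1419719_at, 0.0257 for 1435095_at, 3.16e-05 for 1443205_at and 3.25e-06 for 1443834_at. Against supernatant 3 of the 4 were lower, with 1443834_at at -2.48 ± 0.28 (limma adjusted p = 1.35e-08). Probe set 1435095_at was 0.28 ± 0.25 there and not called (limma adjusted p = 0.295). It was called higher than supernatant after quantile normalization (1.05, limma adjusted p = 0.000404) and after centring (1.46, limma adjusted p = 0.00066). After centring it was also called higher than whole brain (0.68, limma adjusted p = 0.0264). The call for 1419719_at against supernatant (-0.69 ± 0.28, limma adjusted p = 0.0278) was lost when supernatant 13, 14 or 16 was left out (-0.71, -0.55 and -0.50). After quantile normalization 1 of the 4 kept a lower call against whole brain, 1443205_at (-0.43, adjusted p = 0.000906). Gabrb1 and Gabra4, whose windows are printed above, lie on opposite strands and their annotated spans overlap at their starts. Their brightest probe sets thus had opposite calls in both comparisons as deposited, although Gabrb1 1419719_at was 0.51 above whole brain after centring and not called.

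Gabrb2 encodes the beta 2 subunit, a component of the most abundant receptor of the adult brain. Its 5 probe sets disagreed. Probe set 1428203_at read 10.65, 10.90 and 11.14 (lowest, median, highest) in pull-downs after sleep deprivation and 10.01, 11.02 and 11.30 in control pull-downs. The whole-brain levels were 9.79, 9.80, 9.81 and 9.81 after sleep deprivation and 9.60, 9.63, 9.86 and 9.93 in controls, and supernatants read 9.31, 9.50, 9.62 and 9.63. All pull-down arrays exceeded all arrays of the other extracts. This probe set was 1.11 ± 0.14 above whole brain (limma adjusted p = 1.01e-07) and 1.38 ± 0.18 above supernatant (limma adjusted p = 1.92e-07).

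Probe set 1450319_at of Gabrb2 had the opposite order. It read 4.22, 4.65 and 6.58 (lowest, median, highest) in pull-downs after sleep deprivation and 4.10, 4.80 and 6.48 in control pull-downs. In whole brain it read 6.51, 6.59, 6.63 and 6.66 after sleep deprivation and 6.51, 6.57, 6.64 and 7.05 in controls, and in supernatant 8.01, 8.04, 8.19 and 8.36. Supernatant was the highest extract, apart from both others. The pull-down was -1.69 ± 0.26 against whole brain (limma adjusted p = 2.10e-06) and -3.19 ± 0.33 against supernatant (limma adjusted p = 4.23e-09), and whole brain was -1.51 ± 0.35 against supernatant (limma adjusted p = 0.00454). Probe set 1429685_at was lower as well, by -1.67 against whole brain and -0.83 against supernatant. The brightest Gabrb2 probe set, 1428204_at, and 1428205_x_at were not called (-0.13 ± 0.24 and -0.04 ± 0.22 against whole brain, limma adjusted p = 0.594 and 0.879). The direction of 1428204_at depended on the setting, since it was called higher after centring (1.02, limma adjusted p = 0.00498) and called lower with array weights (-0.35, limma adjusted p = 0.0212). After quantile normalization 1428203_at was still 1.13 above whole brain and 1429685_at was still -1.41, both called, while 1450319_at was -0.68 and not called (adjusted p = 0.0602).

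**Figure D3:**
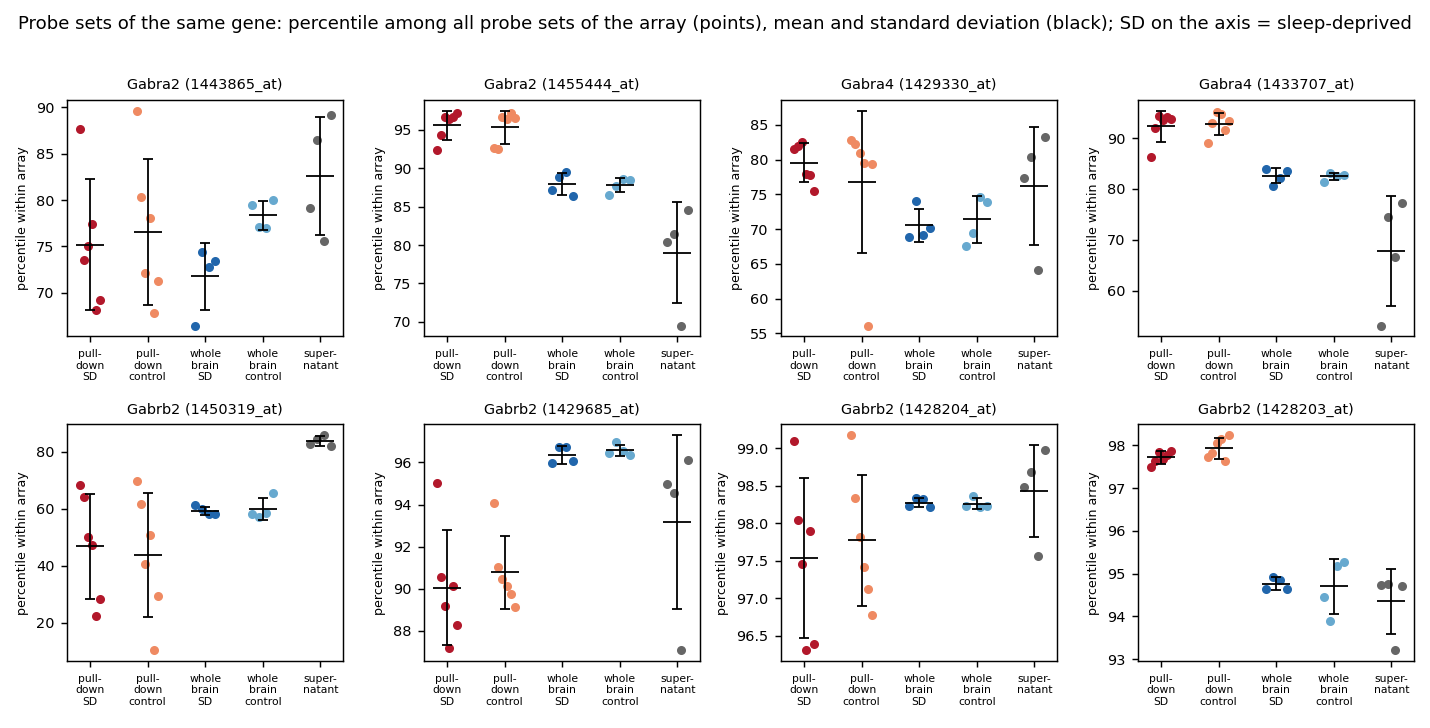
Rank of probe sets of Gabra2, Gabra4 and Gabrb2 among all 45037 probe sets of the same array, as a percentile (vertical axis), by group, with points for arrays and black bars for the mean and standard deviation. Gabrb2 1428203_at ranks at 97.5 or above in every pull-down array and at 95.3 or below elsewhere, while Gabrb2 1429685_at ranks lower in the pull-downs than in whole brain.

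Probe sets of 1 gene read different stretches of its transcripts, and their positions were not used here. Among the 6 subunit genes with several probe sets, 2 (Gabra2 and Gabrb2) were called both higher and lower against whole brain, beside 23.6% of the 9010 genes with several probe sets. The distance between the highest and lowest difference was 2.80 for Gabrb2 and 2.05 for Gabra2, and genes with the same number of probe sets had a median of 2.25. It was 2.21 for Gabrd and 1.24 for Gabra4, and genes with the same number had a median of 0.62. The array's annotation gives the record each probe set was designed on. Of the 21 probe sets, 5 were designed on a RefSeq mRNA record, of which 0 were higher and 4 were lower, beside 6.15% and 80.5% of all RefSeq-designed probe sets. The other 16 were designed on another record, of which 5 were higher and 7 were lower, beside 8.36% and 75.7%. After quantile normalization the counts were 1 higher and 1 lower of the 5, beside 32.6% and 25.3% of all RefSeq-designed probe sets. They were 7 higher and 2 lower of the 16, beside 32.2% and 26.4% of all probe sets designed on another record. In the 2173 genes that have both kinds, the RefSeq-designed ones had the lower difference in 64.7%. The median of RefSeq-designed minus other over all 2173 genes was -0.30.

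Gabrd encodes the delta subunit, which stands in for the synaptic subunit in receptors that carry tonic inhibition in dentate gyrus, cerebellar granule cells and thalamus. Its probe set 1449980_a_at had the largest decrease of the 21 against whole brain. It read 5.22, 5.79 and 8.02 (lowest, median, highest) in pull-downs after sleep deprivation and 5.03, 5.76 and 7.07 in control pull-downs. In whole brain it read 9.17, 9.25, 9.31 and 9.38 after sleep deprivation and 9.07, 9.09, 9.28 and 9.57 in controls, and in supernatant 7.99, 8.06, 8.42 and 8.64. Every pull-down array was below every whole-brain array, and only sleep-deprived array 1, at 8.02, reached the supernatant range. The pull-down was -3.28 ± 0.27 against whole brain (0.103-fold, limma adjusted p = 3.76e-11) and -2.29 ± 0.34 against supernatant (limma adjusted p = 1.18e-06). Without sleep-deprived array 1 and control array 3, the difference from whole brain was -3.59. Quantile-normalized values gave -2.62 and centred values -2.12, both called, and as deposited 0.823% of all probe sets had a lower difference. The other Gabrd probe set, 1457763_at, was lower by -1.06 ± 0.17 (limma adjusted p = 4.02e-06) than whole brain and by -1.57 ± 0.22 than supernatant (limma adjusted p = 4.86e-07), but read -0.01 against whole brain once the arrays were quantile-normalized. Against supernatant it kept its lower call after quantile normalization (-0.45, limma adjusted p = 0.00797) and after centring (-0.40, limma adjusted p = 0.0193). It was dim, with a median percentile of 36.9 in the pull-down, 34.9 in whole brain and 46.6 in supernatant.

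The same pair of arrays ranked highest among the 12 pull-downs for 8 of the 11 probe sets called lower than whole brain for 0 of the 5 called higher and for 4 of the 5 not called. Over all probe sets they ranked highest for 17.4% of those called lower, 4.55% of those called higher and 12.1% of those not called. These are also the pull-down arrays with the highest 18S signals. Their part in the results was not tested beyond leaving them out, and without them the named differences from whole brain kept their direction and their calls. Every pull-down array was above every whole-brain array for 3 of the 21 probe sets (3.35% of all) and below for 3 (27.5% of all). By rank within the array, which no scaling of whole arrays changes, 5 were above (10.3% of all) and 3 were below (10.3% of all). The 5 were the probe sets called higher, and the 3 were Gabrd 1449980_a_at, Gabrb1 1443205_at and Gabrb2 1429685_at. Against supernatant, 3 probe sets were above on every array (6.39% of all) and 5 below (32.1% of all), and by rank 6 were above (14.1% of all) and 2 below (12.9% of all).

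Against supernatant 5 of the 21 probe sets were higher (23.8%, against 11.2% of all) and 10 were lower (47.6%, against 67.4% of all), by limma. After quantile normalization 7 were higher and 8 lower (27.2% and 27.6% of all), and after centring 11 and 4 (44.1% and 18.8% of all). The comparisons of the pull-down with whole brain and with supernatant share the pull-down arrays. In each of them 5 probe sets were higher, namely Gabra2 1455444_at and 1449807_x_at, Gabra4 1433707_at, Gabra5 1433602_at and Gabrb2 1428203_at, and 9 were lower in both (7.46% and 65.8% of all probe sets). Whole brain against supernatant gave 3 higher (8.89% of all), the probe sets of Gabra2, Gabra3 and Gabra4 named above. It gave 2 lower (2.01% of all), Gabrb2 1450319_at and Gabrb1 1443834_at (-1.12 ± 0.29, limma adjusted p = 0.0113). Gabrd 1449980_a_at was 0.99 ± 0.36 there, with an adjusted p of 0.0769 by limma. It was called higher in whole brain after quantile normalization (1.01, limma adjusted p = 0.0197) and with array weights (1.07, limma adjusted p = 6.90e-05). The whole-brain and supernatant counts depend on scaling: they were 6 and 5 after quantile normalization (11.4% and 9.61% of all) and 2 and 3 after centring (6.73% and 3.91% of all).

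Other genes of GABA signalling were compared in lists with 1 probe set per gene, beside 12.9% of all genes higher and 68.8% lower in the pull-down than in whole brain, with a median of -0.64. Of 8 genes for GABA synthesis, packaging and uptake, 1 was higher and 6 were lower, with a median of -1.46. The higher one was Gad1, which makes GABA (0.88 ± 0.17, limma adjusted p = 3.48e-05). Gad2, which makes GABA too, was lower (-0.81 ± 0.15, limma adjusted p = 3.43e-05), and read 0.34, not called, after centring. The lowest were the transporters Slc6a11 (-1.92) and Slc6a13 (-1.67), the Slc6a11 product being an astrocyte GABA transporter. Of 21 genes for receptor trafficking and the inhibitory synapse scaffold, 1 was higher and 17 were lower, with a median of -1.63. Gphn, encoding the scaffold gephyrin, was -3.17 ± 0.29 and Nlgn2, encoding the adhesion protein neuroligin 2, was -3.04 ± 0.31 (limma adjusted p = 3.37e-10 and 2.14e-09), both lower after quantile normalization and centring too. Rdx, encoding radixin, which anchors alpha 5 receptors to actin, was higher (0.90 ± 0.15, limma adjusted p = 4.61e-06). Of 8 genes for GABA-B receptors and chloride transporters, 2 were higher and 5 lower, with a median of -1.20. Car7, a neuronal carbonic anhydrase, was 1.70 ± 0.23 and the chloride importer Slc12a2 was 0.56 ± 0.16, both higher, while the GABA-B auxiliary subunit Kctd16 was -2.81 ± 0.21 and the carbonic anhydrase Car2 was -2.51 ± 0.17, both lower.

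These list counts moved with the scaling. After quantile normalization, where the median gene was 0.23 and 43.5% of all genes were higher and 17.7% lower, 1 synthesis gene was higher and 7 of the 8 were lower. By the same values 3 trafficking and scaffold genes were higher and 14 of the 21 lower, and 2 GABA-B and chloride genes were higher and 5 of the 8 lower. After centring, where the median gene was 0.51 and 63.5% of all genes were higher and 10.4% lower, the numbers higher were 2, 5 and 3 and the numbers lower were 2, 9 and 3. Against supernatant as deposited, where 17.4% of all genes were higher and 58.7% lower, 2 synthesis genes were higher and 4 lower, 3 trafficking and scaffold genes were higher and 14 lower, and 3 GABA-B and chloride genes were higher and 4 lower. Between whole brain and supernatant, 3, 4 and 4 genes of the lists were higher in whole brain, by limma (13.2% of all genes were higher and 1.31% lower).

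Markers of other cells moved with the extracts. All 9 microglial, all 10 endothelial and pericyte, all 6 striatal and all 8 thalamic marker genes were called lower in the pull-down than in whole brain, by limma, and so were 8 of 9 oligodendrocyte markers, beside 68.8% of all genes. Of 10 astrocyte markers 1 was higher and 8 were lower. Of 9 forebrain excitatory neuron markers 2 were higher and 3 lower, of 13 interneuron markers 4 and 7, of 9 cerebellar markers 3 and 4, and of 11 general neuron markers 2 and 5. After quantile normalization, with 17.7% of all genes lower, the numbers lower were 8 of 9 microglial, 8 of 10 endothelial and pericyte, 3 of 6 striatal, 5 of 8 thalamic, 9 of 9 oligodendrocyte and 7 of 10 astrocyte markers. The balance of all genes turned round with this scaling, from 12.9% higher and 68.8% lower to 43.5% higher and 17.7% lower. So did that of the forebrain excitatory, interneuron and cerebellar lists. Of the forebrain excitatory markers 6 of 9 were then higher and 2 lower, and of the interneuron markers 8 of 13 were higher and 3 lower. Of the cerebellar markers 4 of 9 were higher and 3 lower, while 2 of 11 general neuron markers were higher and 6 lower. The thalamus and cerebellum are regions of high Gabrd expression, and the median differences were -1.76 for the thalamic list, -0.42 for the cerebellar list and -0.27 for the forebrain excitatory list, against -0.64 for all genes. After quantile normalization these medians were -1.07, 0.13 and 0.61, against 0.23 for all genes. The mean level of the thalamic list was 5.87 to 7.27 on the pull-down arrays and 8.04 to 8.14 on the whole-brain arrays, that of the cerebellar list 8.95 to 9.79 and 9.67 to 9.83, and that of the forebrain excitatory list 7.29 to 8.85 and 8.08 to 8.27. The part of cell composition in the subunit differences was not tested.

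Sleep deprivation was compared with control within each extract, the question named in the study's title. No probe set of the subunits was called in the pull-down by limma: 0 of 21, with 0 at an unadjusted p under 0.05 (0.955% of all probe sets) and 0% of all probe sets called either way. The 21 differences lay between -0.21 and 0.31. The highest was 0.31 ± 0.37 for Gabra3 1421263_at, followed by 0.26 ± 0.42 for Gabrd 1449980_a_at and 0.26 ± 0.27 for Gabra3 1436957_at. The difference of Gabra2 1455444_at was 0.22 ± 0.29, that of Gabrb1 1419719_at was 0.13 ± 0.33, that of Gabra5 was 0.06 ± 0.31 and that of Gabra4 1433707_at was 0.01 ± 0.29. The 95% intervals over the 21 probe sets reached from -1.19 to 1.14, so changes near a doubling were not excluded for the most variable of them. The narrowest statement is for Gabrb2 1428203_at and Gabra2 1449807_x_at, with intervals of -0.54 to 0.49 and -0.36 to 0.55.

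**Figure D4:**
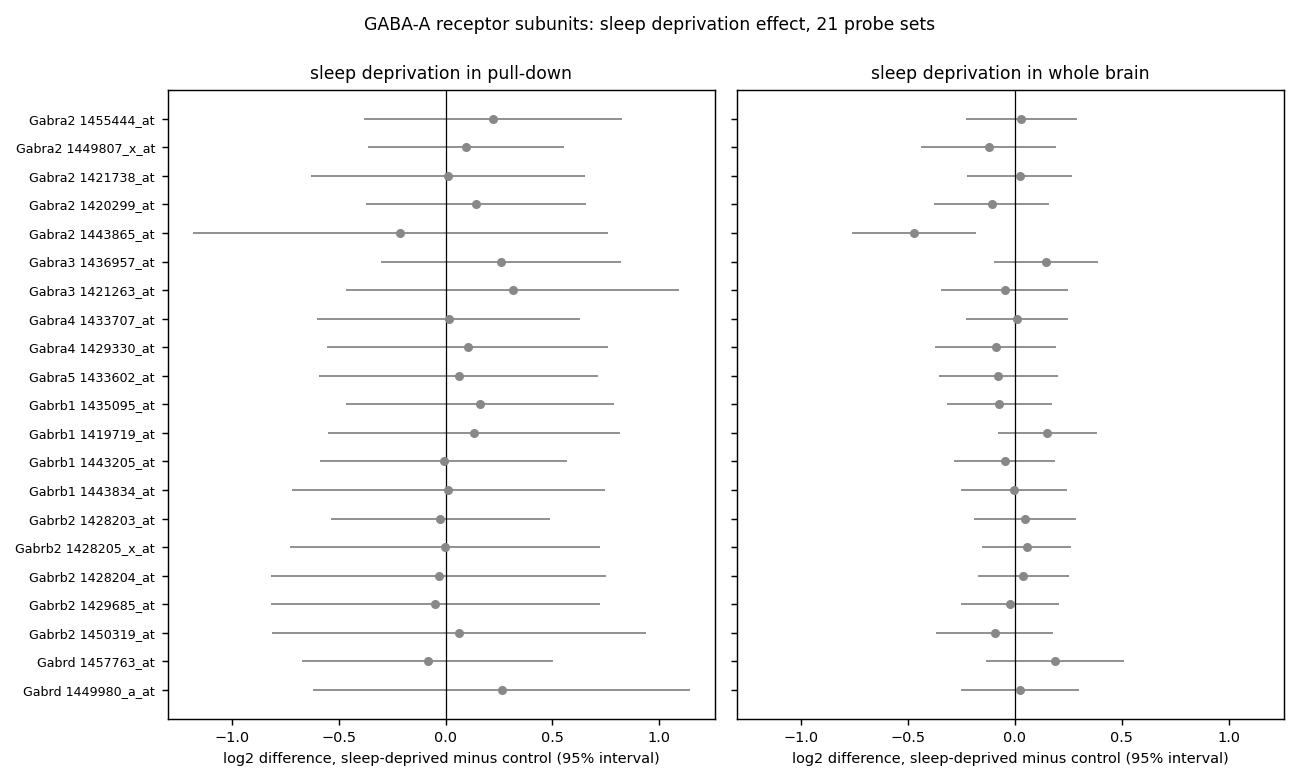
Log2 difference, sleep-deprived minus control, of each of the 21 probe sets (rows) in the pull-down (left, 6 and 6 arrays) and in whole brain (right, 4 and 4 arrays), with 95% intervals from limma. No probe set passed the adjusted threshold. The whole-brain intervals are narrower, and the one of Gabra2 1443865_at (-0.76 to -0.18) lies off 0.

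The pull-downs varied more, with a median standard error over the 21 probe sets of 0.31, against 0.12 in whole brain. In whole brain again 0 of 21 probe sets were called by limma (0.0355% of all probe sets were called higher and 0.0111% lower), and 1 of the 21 reached an unadjusted p under 0.05, or 4.76% beside 10.9% of all probe sets. That one was Gabra2 1443865_at, with whole-brain levels of 6.98 to 7.51 after sleep deprivation, against 7.68 to 7.99 in controls. Its difference was -0.47 ± 0.13, which failed the correction (limma adjusted p = 0.305). The difference of Gabra2 1455444_at was 0.03 ± 0.12, and that of the other probe sets lay between -0.12 and 0.19. The largest of these was Gabrd 1457763_at at 0.19 ± 0.15, followed by Gabrb1 1419719_at at 0.15 ± 0.11 (95% interval -0.08 to 0.38) and Gabra3 1436957_at at 0.14 ± 0.11.

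The difference between the sleep deprivation effects of the pull-down and of whole brain was tested as an interaction. By limma 0 of 21 probe sets were called, with 0 at an unadjusted p under 0.05 (0.338% of all probe sets) and 0% of all probe sets called. The interaction lay between -0.27 and 0.36. For Gabra2 1443865_at it was 0.26 ± 0.63 (95% interval -1.04 to 1.55). Genes of the 3 GABA lists were not called either, in the pull-down or in whole brain (0 of 8, 0 of 21 and 0 of 8 in each, by limma). Over all 18193 genes 0.0605% were called higher and 0.0055% lower in whole brain, and 0% in the pull-down. In whole brain 2 of the 37 list genes, Lhfpl4 and Mocs1, reached an unadjusted p under 0.05 (0.27 ± 0.11 and 0.35 ± 0.16, limma adjusted p = 0.396 and 0.442), beside 10.6% of all genes, and in the pull-down 0 did.

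Over the 24 arrays, the genes whose levels followed each subunit gene's brightest probe set most closely were found among 18178 genes by Pearson's r, a description in which all points share the split into extracts. They were Jakmip2 (0.975) and Cntnap2 (0.959) for Gabra5, Actr6 (0.975) and Bmpr2 (0.973) for Gabra4, and Pcmtd2 (0.962) and Mex3b (0.961) for Gabra2. For Gabra3 they were Kidins220 (0.919) and Cdc123 (0.913), for Gabrb1 Taok1 (0.939) and Cpeb3 (0.937), and for Gabrb2 Gda (0.955) and Kif3a (0.914). Gabrd was followed by Myo1h (0.989) and Srsf5 (0.982).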

How the data were processed

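Affymetrix arrays of 24 mouse brain RNA extracts were analysed from the deposited table of log2 values. Per the submitters' processing notes, the authors used affy and RMA; versions and which arrays were normalized together are not given in the sources used here. Of 45101 rows, 64 control rows were left out. Probe sets were named from the platform annotation; 34945 had 1 gene symbol, 932 had several and 9160 had none. Groups followed the labels, and no 2 arrays held identical values. Nothing in the labels says how independently replicates were processed, so p-values measure the spread between these arrays.

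Differences were fitted with limma 3.58.1 in R 4.3.3 (lmFit and eBayes, two-sided, Benjamini-Hochberg over 45037 probe sets, threshold 0.05, 95% intervals). Pull-down and whole brain were compared as the mean of the sleep-deprived and control contrasts, over all 24 arrays. Sleep deprivation was fitted within each extract on its own arrays. The script was tested on simulated data. Named probe sets (10) were each member's brightest and, where a gene's probe sets were called both ways against whole brain, the highest and the lowest called; list genes were up to 2 with the largest difference each way. Other probe sets singled out were chosen after their values were seen. Alternatives were quantile normalization, centring, array weights, trend and robust settings, a filter on low levels, 1 fit of all arrays, and leaving out arrays. The number of arrays limits the precision. The members and all lists were chosen with earlier results of these data known.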

Additional observations from a re-analysis of the deposited data

Results flagged for a closer look

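Single arrays far from the rest of their group by Dixon's test were found in 7 of 50 checks (10 probe sets in 5 groups), where chance gives about 1 in 20. For Gabra2 1443865_at, sleep-deprived pull-down array 1 read 8.65 beside 6.01 to 6.65 in the other arrays of its group, and control pull-down array 3 read 8.80 beside 6.25 to 6.87. Both arrays have the highest 18S signals of the pull-downs. For the same probe set, sleep-deprived whole-brain array 18 read 6.98 beside 7.43 to 7.51.

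Gabra5 1433602_at read 8.03 in control pull-down array 11, beside 9.30 to 9.88 in its group, and 6.87 in supernatant array 15, beside 8.09 to 8.32. Gabrb2 1428203_at read 10.01 in control pull-down array 11, beside 10.89 to 11.30. Array 11 has the highest median of the pull-downs, 5.70, and was the lowest of the 12 for 11 of the 21 probe sets. Supernatant array 15 was the lowest of its 4 for 13 of the 21. Gabrb2 1428204_at read 11.03 in sleep-deprived whole-brain array 21, beside 10.998 to 10.999 in the others, a gap far smaller than the spread of other groups. The causes were not tested.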

How the results depend on the processing

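The higher calls of Gabra2 1455444_at, Gabra4 1433707_at, Gabra5 1433602_at and Gabrb2 1428203_at against whole brain, and the lower call of Gabrd 1449980_a_at, were made under each alternative run. Scaling moved most of the rest, and the cause was not tested. Between pull-down and whole brain, quantile normalization gave 8 higher and 3 lower probe sets and a sign change for 1 named probe set (0.12 for Gabra2 1443865_at). Centring gave 11 higher and 1 lower, with 0.37 for Gabra2 1443865_at, 0.23 for Gabra3 1436957_at, 0.51 for Gabrb1 1419719_at and 1.02 for Gabrb2 1428204_at, the last called higher, whereas array weights gave a lower call (-0.35). Between pull-down and supernatant, centring gave 11 higher and 4 lower, with 0.48 for Gabrb1 1419719_at and 1.11 for Gabrb2 1428204_at, the last again called higher. Between whole brain and supernatant the counts were 6 and 5 after quantile normalization (-0.15 for Gabrb2 1428204_at), 6 and 6 with array weights (-0.011 for Gabrb2 1428204_at), and 1 lower among probe sets in the upper part of mean level.

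The sleep deprivation effects that changed sign were all small and not called. In the pull-down they were -0.076 for Gabra4 1433707_at and -0.021 for Gabra5 1433602_at after quantile normalization, 0.10 for Gabrb2 1428203_at and 0.092 for Gabrb2 1428204_at after centring, and -0.10 for Gabra4 1433707_at, -0.072 for Gabra5 1433602_at, -0.033 for Gabrb1 1419719_at and -0.0069 for Gabrb2 1450319_at with array weights. Without sleep-deprived pull-down 1 and control pull-downs 3 and 11 they were -0.18 for Gabra4 1433707_at, -0.16 for Gabra5 1433602_at, -0.089 for Gabrb1 1419719_at and -0.076 for Gabrb2 1450319_at. In whole brain they were -0.012 for Gabrd 1449980_a_at after quantile normalization, 0.0055 for Gabra5 1433602_at after centring and -0.018 for Gabra4 1433707_at with array weights. The interaction became -0.090 for Gabra4 1433707_at after quantile normalization, 0.023 for Gabrb1 1419719_at after centring, -0.081 for Gabra4 1433707_at and -0.0016 for Gabra5 1433602_at with array weights, and -0.19 for Gabra4 1433707_at and -0.084 for Gabra5 1433602_at without those 3 pull-downs, and 0.0074 for Gabrb1 1419719_at without the pair highest in 18S.

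Leaving out 1 array at a time changed the sign of uncalled differences only. Between pull-down and supernatant the range was -0.042 to 0.30 for Gabra3 1436957_at and -0.21 to 0.069 for Gabrb2 1428204_at. Between whole brain and supernatant the range was -0.46 to 0.019 for Gabra5 1433602_at, -0.36 to 0.15 for Gabrb1 1419719_at and -0.081 to 0.20 for Gabrb2 1428204_at. For sleep deprivation in the pull-down the range was -0.60 to 0.17 for Gabra2 1443865_at, -0.17 to 0.16 for Gabra4 1433707_at, -0.19 to 0.20 for Gabra5 1433602_at, -0.093 to 0.28 for Gabrb1 1419719_at, -0.20 to 0.055 for Gabrb2 1428203_at, -0.25 to 0.20 for Gabrb2 1428204_at, -0.26 to 0.37 for Gabrb2 1450319_at and -0.12 to 0.51 for Gabrd 1449980_a_at. For sleep deprivation in whole brain the range was -0.037 to 0.089 for Gabra2 1455444_at, -0.030 to 0.072 for Gabra4 1433707_at, -0.0069 to 0.10 for Gabrb2 1428203_at, -0.16 to 0.022 for Gabrb2 1450319_at and -0.038 to 0.13 for Gabrd 1449980_a_at. For the interaction the range was -0.13 to 0.64 for Gabra2 1443865_at, -0.025 to 0.22 for Gabra3 1436957_at, -0.18 to 0.15 for Gabra4 1433707_at, -0.12 to 0.27 for Gabra5 1433602_at, -0.24 to 0.13 for Gabrb1 1419719_at, -0.25 to 0.0096 for Gabrb2 1428203_at, -0.29 to 0.16 for Gabrb2 1428204_at, -0.16 to 0.47 for Gabrb2 1450319_at and -0.14 to 0.48 for Gabrd 1449980_a_at. Counts of called probe sets under leave-one-out were 5 and 10 to 11 (higher and lower) against whole brain, and 5 and 7 to 10 against supernatant, and 0 for sleep deprivation.

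No paired analysis was possible because the groups compared share fewer than 2 replicate numbers. The remaining alternatives gave 372 single results on the same side of the threshold, 6 newly called and 11 no longer called. Among the latter were Gabra2 1443865_at and Gabrb1 1419719_at within the control groups alone (-0.91 and -0.64). Both also lost their call within the sleep-deprived groups alone (-0.65 and -0.65). Of the counts of called probe sets, 73 were equal or close to the count of the main fit.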
